A study of Mus musculus with 10 samples.

Results

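The type I interferon response genes followed here were 9 genes, Irf7, Usp18, Isg15, Oasl1, Oasl2, Ifit1, Ifit3, Zbp1 and Ifi44. They were found as the probes that the scanner files name by one of these symbols, an older symbol or the gene's accession. That gave 10 of the 41174 probes on the array and 9 of its 27729 gene names, with 2 probes for Ifi44 and 1 for each other gene. Of the 9 genes, 8 passed the filter on dim probes in every comparison, and Ifi44 passed it in none.

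The genes were followed in 3 comparisons on 10 Agilent 2-colour mouse arrays. In the first, isolated small intestinal crypts of Lgr4/Lgr5 double knockout mice, AhCre_Lgr4fl/fl_Lgr5 fl/fl, taken on day 1 after deletion, were hybridised against wt control crypts on the same arrays. There were 2 biological replicates, each on 2 arrays with the dyes swapped. In the second, organoids grown from VillinCre_Lgr4fl/fl-Lgr5fl/fl small intestine were taken 1 day after deletion (n = 2) and set against VillinCre_wt organoids given tamoxifen for 1 day (n = 2). In the third, organoids were kept for 1 day without R-spondin (medium EN) on 1 array, against organoids in full medium with R-spondin (ENR) on 1 array. AhCre is a Cre driven by an inducible cytochrome P450 promoter, and VillinCre is active throughout the intestinal epithelium. The labels do not say whether the wt crypt donors received the inducer. All organoid arrays carried a commercial mouse reference RNA in the second channel. Organoids are grown from epithelium in medium with EGF, Noggin and R-spondin, the Wnt agonist that binds Lgr4 and Lgr5. For the organoids the labels call the second culture of each group a biological replicate without naming animals, so p-values measure the spread between these samples, which may be technical.

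Type I interferons bind the receptor pair Ifnar1 and Ifnar2, which act through the kinases Jak1 and Tyk2. The signal ends in a complex with Irf9 that binds the interferon-stimulated response element in the promoters of its target genes. Type III interferons use another receptor, Ifnlr1 with Il10rb, and the same complex, and in the gut epithelium they are known for driving much of this antiviral programme. Many target genes are also switched on directly by Irf factors when cells sense foreign nucleic acid.

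The probes lie on 7 mouse chromosomes, by the mm9 positions in the scanner files. Irf7 is read at chr7:148450664-148451014 on the minus strand, a span longer than the probe. Usp18 is read at chr6:121220513-121220572 and Zbp1 at chr2:173032113-173032170. Oasl2 at chr5:115362168-115362227 and Oasl1 at chr5:115387556-115387615 are neighbours, as are Ifit3 at chr19:34663105-34663164 and Ifit1 at chr19:34723796-34723855. Isg15 is read at chr4:155573922-155573981, and Ifi44 at chr3:151394035-151394094 and chr3:151409005-151409064. The longest run of bases shared between the 60-base probes of different members was 9, over 44 pairs. Whether the Ifit3 probe also reads its close paralogue Ifit3b was not tested.

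Promoter windows of 7 of the 9 genes were available from RefSeq on GRCm38.p6. The response element was searched as GAAANNGAAA, or TTTCNNTTTC on the other strand, in the 250 bases before the annotated start. It occurred in 3 of the 7 windows, those of Isg15, Ifit1 and Ifit3, and in 936 of 27025 genes with a window, or 3.46%. Isg15 held 3 overlapping matches, with first bases 78, 72 and 66 bases before the start. Ifit1 held 2, at 104 and 85 bases, and Ifit3 held 2, at 156 and 122 bases. The matches are shown in capitals, since they are the sequence searched for. The Isg15 window is chr4:156200819-156201068 on the minus strand, the Ifit1 window chr19:34640639-34640888 and the Ifit3 window chr19:34583279-34583528, both on the plus strand.
Isg15: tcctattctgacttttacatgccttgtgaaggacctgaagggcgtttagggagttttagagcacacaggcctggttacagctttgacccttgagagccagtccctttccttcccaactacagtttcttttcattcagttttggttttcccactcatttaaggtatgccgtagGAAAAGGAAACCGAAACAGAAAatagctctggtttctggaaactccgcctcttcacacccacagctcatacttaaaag
Ifit1: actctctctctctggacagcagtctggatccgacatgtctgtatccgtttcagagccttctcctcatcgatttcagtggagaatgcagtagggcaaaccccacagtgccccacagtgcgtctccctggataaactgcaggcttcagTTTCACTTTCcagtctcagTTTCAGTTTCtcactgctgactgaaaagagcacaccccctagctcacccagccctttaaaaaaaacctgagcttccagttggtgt
Ifit3: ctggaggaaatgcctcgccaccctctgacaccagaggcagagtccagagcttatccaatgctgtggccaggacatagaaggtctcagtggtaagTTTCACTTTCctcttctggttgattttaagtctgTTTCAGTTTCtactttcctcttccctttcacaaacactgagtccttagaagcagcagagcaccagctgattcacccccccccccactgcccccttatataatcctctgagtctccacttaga
The windows of Irf7, Oasl1, Oasl2 and Ifi44 did not hold these letters. Among other interferon-stimulated genes 13 of 34 windows held the motif, and among genes best known for induction by interferon gamma 10 of 12 did. A match is a description of the letters and not evidence of binding.

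In crypts, all 8 genes tested were higher in Lgr4/5 deleted crypts than in wild type crypts on 4 of 4 arrays, that is in each replicate and each dye orientation. The median log2 change over the 8 genes was 1.20, against -0.02 over all 11999 genes tested. Among genes with a value on every crypt array, 16.3% were above 0 on all 4. Of the 8, Ifit1 passed the filter on dim probes only through the deleted crypts, so its place in the counts given here is no support. The members were also chosen with earlier results of these data known, so the counts only describe them. By limma with Benjamini-Hochberg adjustment over all genes, none of the 8 passed an adjusted p of 0.05, where 0.183% of all genes were called higher. Their adjusted p-values ran between 0.135 and 0.326. At an unadjusted p under 0.05 all 8 were higher, against 6.53% of all genes. A change of at least 1 on the log2 scale was reached by 6 of the 8, against 2.05% of all genes. With the scanner software's own processed signals in place of the background-corrected intensities, 6 of the 8 passed the adjusted threshold as higher, against 2.64% of all genes. With marked spots kept, or with the mean of a gene's probes, none of the 8 passed it. The groups are bulk RNA, in which fewer cells of a type and less RNA per cell cannot be told apart.

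**Figure D1:**
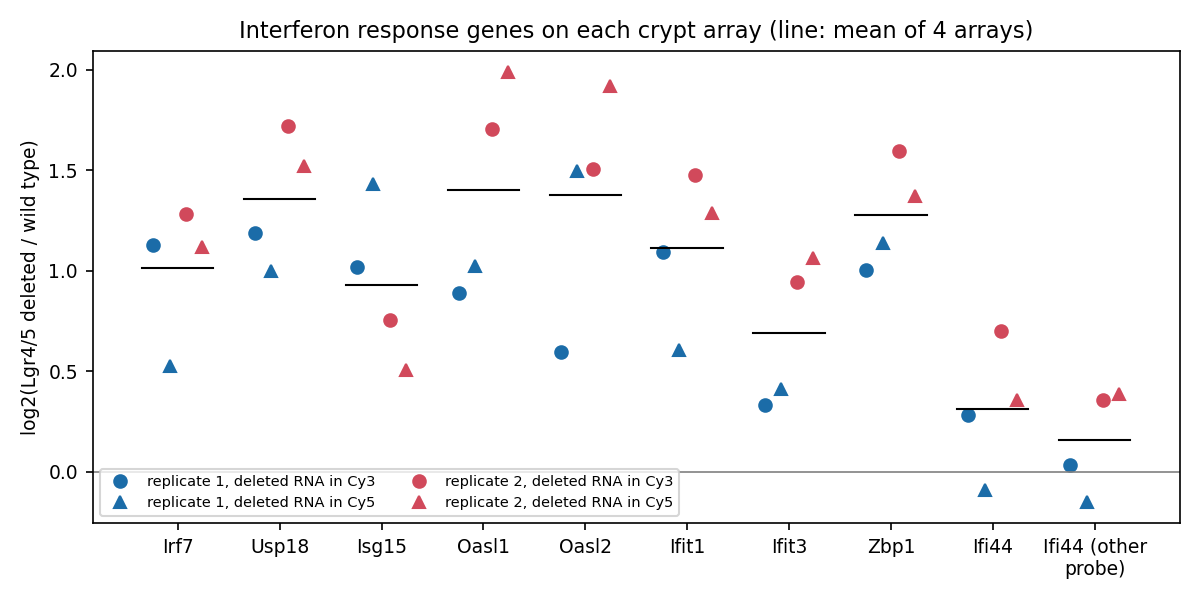
Log2 ratio of Lgr4/5 deleted over wild type crypts for each probe on each of the 4 arrays; colour marks the biological replicate, shape the dye of the deleted RNA, and the line the mean of the 4 arrays. The 8 genes tested lie above 0 on every array, and the 2 Ifi44 probes lie nearer to 0.

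Irf7, the transcription factor that amplifies the interferon response, had log2 ratios of 1.13 and 0.53 in replicate 1 and 1.28 and 1.12 in replicate 2, with the deleted RNA in Cy3 and then in Cy5. Its normalised intensities were 600.1, 385, 566 and 505 in deleted crypts, against 274, 267, 233 and 232 in wild type crypts on the same arrays. The deleted channel was brighter on each array and the groups did not overlap. Its change was 1.02 ± 0.23 (SE, n = 2 replicates), with an adjusted p of 0.191.

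Usp18 encodes the protease that removes Isg15 from proteins and that dampens signalling from Ifnar2. It had ratios of 1.19 and 1.00 in replicate 1 and 1.72 and 1.52 in replicate 2. Its intensities were 811, 601, 916 and 839.7 in deleted crypts, against 355, 300.3, 278 and 292 in wild type crypts. No wild type value reached the lowest deleted value. Usp18 had the lowest adjusted p of the 8, 0.135 by limma, with a change of 1.36 ± 0.24 (SE, n = 2).

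Isg15, the ubiquitin-like protein that is joined to other proteins in this response, had ratios of 1.02 and 1.43 in replicate 1 and 0.75 and 0.51 in replicate 2. Its intensities were 1456, 1630.4, 827 and 717 in deleted crypts, against 717, 605, 490.3 and 505 in wild type crypts. The lowest deleted value and the highest wild type value were thus about equal, on different arrays. The change was 0.93 ± 0.25 (SE, n = 2; adjusted p = 0.236). Isg15 was the only one of the 8 with a larger change in replicate 1 than in replicate 2. The other 7 had the larger change in replicate 2, as did 171 of the 246 genes with a change of at least 1.

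Oasl1 and Oasl2 encode proteins related to the oligoadenylate synthetases; Oasl1 is known in mice as a translational inhibitor of Irf7. Oasl1 had ratios of 0.89 and 1.02 in replicate 1 and 1.70 and 1.99 in replicate 2. Its intensities were 2022, 1817, 2892 and 4101 in deleted crypts, against 1091, 894, 887 and 1033 in wild type crypts. The groups did not overlap, and the wild type values kept to a narrow range while the deleted ones spread. The change, 1.40 ± 0.28 (SE, n = 2; adjusted p = 0.161), was close to that of Oasl2.

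Oasl2 had ratios of 0.60 and 1.50 in replicate 1 and 1.51 and 1.92 in replicate 2. Its intensities were 2076, 2347, 2051 and 2584 in deleted crypts, against 1373, 832, 721 and 683 in wild type crypts. The deleted values lay close together, and the lowest ratio went with the highest wild type value. The change was 1.38 ± 0.26 (SE, n = 2; adjusted p = 0.143).

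Ifit1 and Ifit3 encode partners of an antiviral complex that binds viral RNA. Ifit1 had ratios of 1.095 and 0.61 in replicate 1 and 1.48 and 1.29 in replicate 2, with a change of 1.12 ± 0.24 (SE, n = 2; adjusted p = 0.174). It was well above background in deleted crypts on 4 of 4 arrays and in wild type crypts on 3, so it passed the filter through the deleted group. Its intensities were 602, 357, 665 and 624 in deleted crypts, against 282, 234, 239 and 255 in wild type crypts.

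Ifit3 had ratios of 0.33 and 0.41 in replicate 1 and 0.95 and 1.07 in replicate 2. Its intensities were 465, 363, 615 and 575 in deleted crypts, against 369, 273, 319 and 275 in wild type crypts. The groups overlapped, since the lowest deleted value lay below the highest wild type value. The change was 0.69 ± 0.25 (SE, n = 2; adjusted p = 0.326).

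Zbp1, a sensor of left-handed nucleic acid that can start inflammatory cell death, had ratios of 1.00 and 1.14 in replicate 1 and 1.59 and 1.38 in replicate 2. Its intensities were 1491, 1451, 1865 and 1635 in deleted crypts, against 744, 659, 618 and 630.4 in wild type crypts. The 2 groups did not overlap. The change was 1.28 ± 0.23 (SE, n = 2; adjusted p = 0.140).

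Ifi44, an interferon-induced gene read by 2 probes, was too dim to test. The probe for its reference transcript was well above background in deleted crypts on 3 of 4 arrays and in wild type crypts on 2. Its ratios were 0.29, -0.09, 0.70 and 0.36. The other probe gave 0.04, -0.15, 0.36 and 0.39 and was not well above background in wild type crypts on any array. The 2 arrays of replicate 2 were above 0 for both probes, and those of replicate 1 had no common sign.

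**Figure D2:**
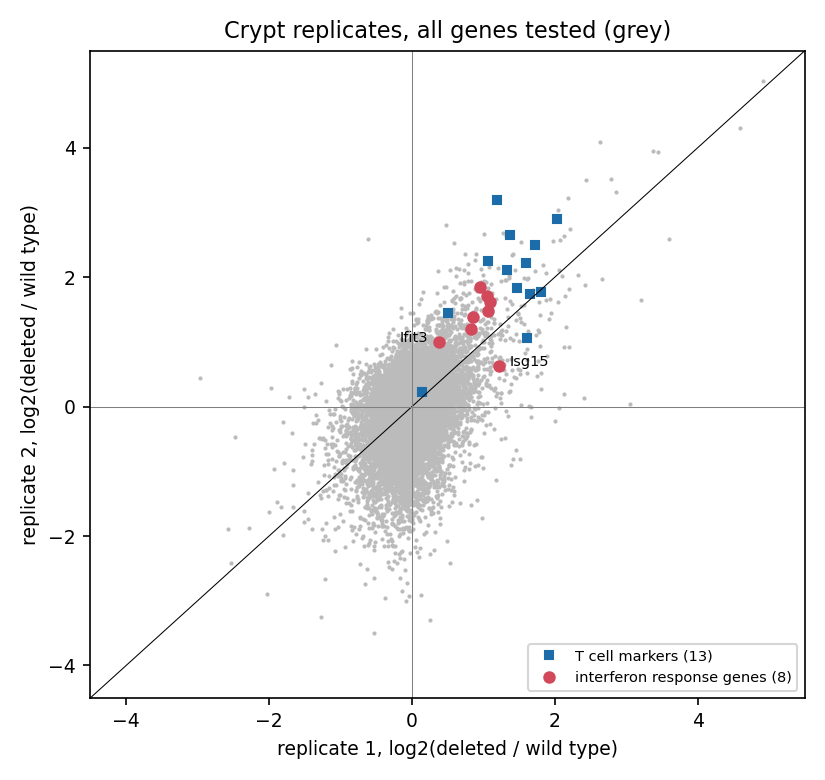
Log2 ratio of Lgr4/5 deleted over wild type crypts in replicate 2 (vertical) against replicate 1 (horizontal), each the mean of 2 dye-swapped arrays, for the genes tested in crypts with a value in both replicates; 2 genes fall outside the axes. The interferon response genes lie in the upper right, all but Isg15 above the line of equal change, beside most of the T cell markers.

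The 5 non-member genes whose values on the 4 crypt arrays lay nearest to the members' median on each array were Pglyrp2, Rnd2, Pla2g5, Slc30a10 and Cdkn1a, out of 9853 genes ranked by root mean square distance. Pglyrp2, an amidase that cuts bacterial peptidoglycan, lay nearest at 0.063 log2 units, with ratios of 1.02, 0.94, 1.41 and 1.26. Pla2g5, a secreted phospholipase, lay at 0.160, and its difference without minus with R-spondin was -5.07 log2 units, where each tested member's was above 0.

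The rest of the pathway was described from lists of 107 genes. Beside the counts above 0 in crypts for these and the marker lists, the median over all 11999 genes tested was -0.02. More of all genes thus lay below 0 than above it, and their exact share above 0 is not given here. Of the interferon genes themselves 13 of 21 were on the array, and 2 were bright enough to test in crypts. Neither was above 0, with -0.14 for Ifna9 and -0.0016 for Ifna2. Ifnb1, the early type I interferon, was not well above background in either crypt channel of any array or in any organoid culture. Ifng, which encodes interferon gamma, was well above background in deleted crypts on 3 of 4 arrays and in wild type crypts on 1, and in no organoid culture.

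Receptors and signalling proteins showed no common shift, with a median crypt change of 0.08 over 17 genes, 12 of them above 0. None passed the adjusted threshold. The receptor chain Il10rb was at 0.52, Ifnar2 at 0.46 and the kinase Jak2 at 0.43. Nucleic acid sensors and adaptors had a median of 0.16 over 12 genes, 8 of them above 0 and none called. Dhx58, a helicase of the RNA sensing family, led at 0.86 ± 0.25 (SE, n = 2; adjusted p = 0.251), followed by Trex1 at 0.50, Ifih1 at 0.41 and Adar at 0.44.

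Other interferon-stimulated genes had a median crypt change of 0.40 over 30 genes, with 26 above 0 and none called. At an unadjusted p under 0.05, 5 were higher, against the 6.53% of all genes above, and 1 was lower, against 7.48%. Ifit1bl1, a relative of Ifit1, had the lowest p of the list, at 1.40 ± 0.22 (SE, n = 2; adjusted p = 0.0975). Rtp4 was at 0.79 and Trim30a at 0.68. Trim30a passed the filter on dim probes only through the deleted crypts, so its place among the 5 is no support. Ifitm3, which blocks virus entry at membranes and is also a crypt epithelial gene, was at -1.03 ± 0.26 (SE, n = 2; adjusted p = 0.222). Ifitm3 was below 0 on each of the 4 arrays, at -1.52, -1.28, -0.77 and -0.56, and its organoid difference was -1.30 (adjusted p = 0.581).

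Genes best known for induction by interferon gamma had a median of 0.99 over 8 genes, all of them above 0 and none called. The median over all genes was -0.02. At an unadjusted p under 0.05, 5 of the 8 were higher, against 6.53% of all genes. Of these, Gbp3 and Tgtp1 passed the filter on dim probes only through the deleted crypts, so their places among the 5 are no support. Igtp, a GTPase of cell-autonomous defence, was at 1.49 ± 0.22 (SE, n = 2; adjusted p = 0.0904). Tgtp1 at 1.14, Ido1, the tryptophan-degrading enzyme, at 1.40 and Irgm2 at 0.93 came next by p. Many of these genes also respond to type I interferon.

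**Figure D3:**
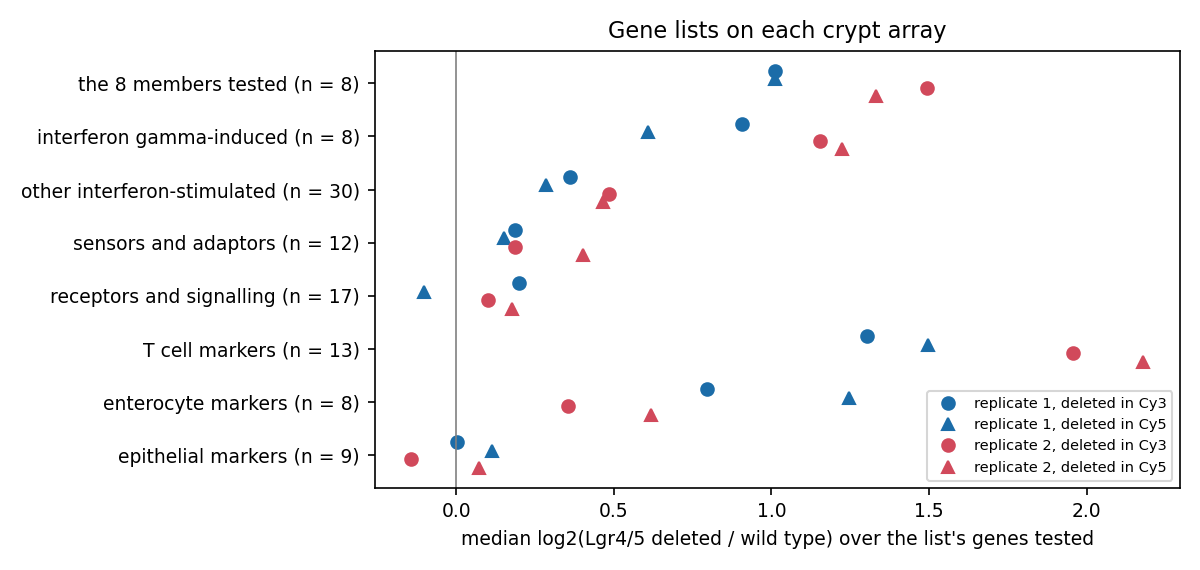
Median log2 ratio of Lgr4/5 deleted over wild type crypts on each of the 4 arrays for the 8 members tested, 4 interferon lists and 3 marker lists, with the number of genes tested in each. The T cell markers have the highest median on each array. For them and the members the 2 arrays of replicate 2 lie above those of replicate 1. The same order holds for the interferon gamma-induced and the other interferon-stimulated genes.

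T cell markers also lay above 0 in crypts. Their median change was 1.72 over 13 genes tested of 16, with 13 above 0. Of these 1, Ccl5 at 2.46, was called higher, against 0.183% of all genes. Array by array their medians were 1.30 and 1.50 in replicate 1 and 1.96 and 2.18 in replicate 2. On the same arrays the members' medians were 1.01 and 1.01, and in replicate 2 they were 1.49 and 1.33. The summed intensity over the 13 of 16 markers with a value in both channels of every array, dim ones included, was between 17468 and 21878 in deleted crypts, against between 5450 and 7569 in wild type crypts. No marker was below background on all arrays of the deleted group, and 1 was in the wild type group. Well above background on every array were 13 in the deleted group and 11 in the wild type group. Some were thus tested only through the deleted crypts. T cells also express interferon-stimulated genes, and the T cells' part in the members' change was not tested.

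Of the 12 myeloid and plasmacytoid dendritic cell markers 3 were bright enough to test in crypts, with a median of -0.04 and 1 above 0. The 3 include Bst2, which is also on the list of other interferon-stimulated genes. Of the 12, 1 was below background on every array of the deleted group and 4 on every array of the wild type group. The summed intensity of 9 markers was between 22531 and 68482 in deleted crypts, against between 46818 and 66803 in wild type crypts. A gain or loss of these cells was not tested. The B and plasma cell markers had a median of 0.16 over 5 genes. Epithelial markers were well above background in every group, 10 of 10, with a median crypt change of -0.06. Enterocyte markers had a median of 0.63, crypt stem cell markers -0.69 and Paneth cell markers -1.01. Cyp1a1, the classical target of the aryl hydrocarbon receptor, was called higher in deleted crypts at 3.66 ± 0.25 (SE, n = 2; adjusted p = 0.0141). The 7 tested targets of that receptor had a median of 1.69. Whether the inducer differed between the groups, and its part in the members' change, was not tested.

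The labels were checked on the deleted genes, though whether their probes lie in the deleted exons was not tested. Lgr4 was at -1.56 and Lgr5 at -1.68 in crypts, and in organoids they were at -3.58 and -3.73 for deleted minus wild type cultures. Lgr4 was at -0.01 and Lgr5 at -5.08 for organoids without minus with R-spondin. Over the genes tested, the crypt arrays correlated at r = 0.359 within replicate 1 and at 0.919 within replicate 2, and at between 0.357 and 0.425 across replicates. These are correlations across genes within few samples. The correlation within replicate 1 thus lay in the range between replicates. Between 40.2% and 63.1% of gene spots were well above background in the channel Cy5, and no spot was saturated. In the 4 organoid deletion arrays the reference channel, Cy3, was well above background for only 3.66% to 4.26% of spots, so the organoid values below rest on Cy5 alone. Slides could not be told apart from replicates in crypts, where each replicate lay on a slide of its own.

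In deleted organoids, none of the 8 genes tested was called higher by limma at an adjusted p of 0.05, where 0.0292% of 13676 genes were. The median difference in log2 Cy5 intensity, deleted minus wild type, was 0.29 over the 8 genes and 0.02 over all genes. Both deleted cultures lay above both wild type cultures for 4 of the 8, Isg15, Oasl2, Ifit1 and Zbp1, against 18.1% of genes. Ifit1 passed the filter on dim probes only through the deleted cultures, which favours such a separation, so its place among the 4 is no support. T cell markers were mostly below background in these cultures. Of 16 markers, 11 were not well above background in either deleted culture and 13 in either wild type culture, and the summed intensity of 15 was between 1494 and 1566 in deleted cultures, against between 1551 and 1573 in wild type cultures.

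Each slide held 1 deleted and 1 wild type culture, which allowed a difference within each slide. The median over the 8 genes was 0.39 on the first slide and -0.02 on the second. All 8 differences were above 0 on the first slide, against 52.8% of genes, and 4 of 8 on the second, against 50.6%. Each of the 8 was larger on the first slide than on the second, as were 50.7% of genes.

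Oasl2 had Cy5 intensities of 315 and 276 in deleted cultures, against 147 and 218 in wild type cultures. The difference was 0.72 ± 0.27 log2 units (SE, n = 2 each; adjusted p = 0.607), with 1.101 on the first slide and 0.34 on the second. The groups did not overlap.

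Oasl1 had intensities of 1206 and 592 in deleted cultures, against 548 and 621 in wild type cultures. Only the first deleted culture stood above the wild type ones. The difference was 0.53 ± 0.37 (SE, n = 2 each; adjusted p = 0.838), with 1.14 on the first slide and -0.07 on the second. It was 0.02 without the first deleted culture and 1.05 without the second.

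Ifit1 had intensities of 141 and 113 in deleted cultures, against 82 and 96 in wild type cultures. It was well above background in both deleted cultures and in neither wild type culture, so only a bound can be given. Taking the dimmest signal that was well above background as the wild type floor on each array, Ifit1 was at least 1.31-fold higher in deleted organoids, with an adjusted p of 0.690 by limma. Its fitted log2 difference of 0.51 was 0.16 with marked spots kept, 0.32 with the series table and 1.18 with the processed Cy5 signal, so the bound holds for the setting used here.

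Isg15 had intensities of 308 and 284 in deleted cultures, against 219 and 211 in wild type cultures. Both slides gave a like difference, 0.49 and 0.43, and the fit gave 0.46 ± 0.21 (SE, n = 2 each; adjusted p = 0.678). As a ratio to the reference channel, not well above background for this gene, the difference was -0.07. With the series table, also a ratio to that channel, it was 0.21, so its direction depended on the processing. The other 4 genes had differences between 0.02 and 0.12, with adjusted p-values between 0.968 and 0.998. Among these, Zbp1 had 161 and 143 in deleted cultures, against 137 and 142 in wild type cultures. Irf7 had 161 and 210.1 in deleted cultures, against 132 and 218 in wild type cultures. Usp18 had 217 and 176 in deleted cultures, against 200 and 186 in wild type cultures, and Ifit3 had 215 and 187, against 192 and 204 in wild type cultures. In these 3 genes the groups overlapped. Ifi44 was not well above background in any organoid culture with either probe.

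**Figure D4:**
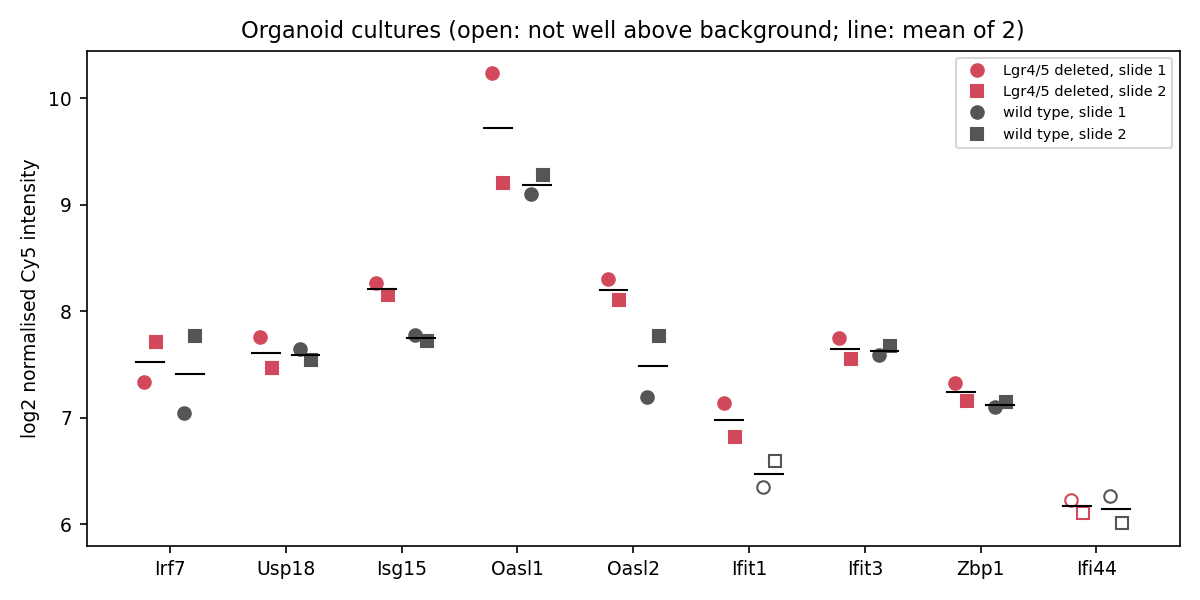
Log2 normalised Cy5 intensity of each gene in the Lgr4/5 deleted organoid cultures and, to their right, the wild type cultures (n = 2 each); open symbols were not well above background and lines are group means. The deleted cultures of Isg15, Oasl2, Ifit1 and Zbp1 lie above both wild type cultures, the last by little.

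The crypt change was set against the organoid difference in 1 limma fit. The crypt side is a ratio of channels under AhCre, and the organoid side a difference in Cy5 intensity alone under VillinCre. None of the 8 genes passed an adjusted p of 0.05, where 0.101% of 11824 genes did. Leaving out Ifit1, which has only a bound in organoids, the crypt change was larger for each of the other 7, with a median gap of 0.87 log2 units. The median gap over all genes was -0.03, so no more of them lay above 0 than below it. Usp18 had a gap of 1.34 ± 0.35 (SE; adjusted p = 0.478), from 1.36 in crypts and 0.02 in organoids. Zbp1 followed at 1.16 ± 0.33 (SE; adjusted p = 0.561), and the other 6 had adjusted p-values between 0.849 and 0.905. At an unadjusted p under 0.05 the gap passed as higher in crypts for 2 of the 8, Usp18 and Zbp1, against 2.81% of genes. Zbp1 was dim in organoids, at 137 to 161, where Ifi44, not well above background, read 60 to 77. In crypts Zbp1 read 618 to 1865, under another normalisation. The part of signal level, measure and Cre in the gap was not tested.

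Without R-spondin, with 1 array in each group and so no test, all 8 genes had a higher ratio to the reference RNA than with it, against 57.4% of 17025 genes. The median difference was 0.32 log2 units, against 0.07 over all genes. A difference of at least 1 was reached by 1 of the 8, Oasl1, against 4.41% of genes. Oasl1 had a log2 ratio of 0.13 without R-spondin and -1.23 with it, a difference of 1.35. Its Cy5 intensity alone was 4063 without R-spondin and 1644 with it.

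Irf7 had log2 ratios of -0.83 without and -1.63 with R-spondin, a difference of 0.81, or 1.04 with the scanner software's processed signals. Its Cy5 intensities were 451 without and 273 with R-spondin. The remaining 6 differences were small, between 0.16 for Ifit1 and 0.38 for Isg15. Isg15 had Cy5 intensities of 436 without and 299.7 with R-spondin, and Ifit1 had 119 without and 116 with it. With Cy5 alone, which is part of the same ratios on the same 2 arrays, all 8 differences were above 0, with a median of 0.38. Those of Ifit1, 0.04, and Zbp1, 0.06, were near 0. The share of all genes above 0 with Cy5 alone is not given here, so this count has no baseline. Ifi44 was not well above background in either culture. The summed intensity of 15 T cell markers was 2496 without and 2519 with R-spondin.

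Other interferon-stimulated genes had a median difference of 0.32 over 30 genes without R-spondin, with 25 above 0 and 3 at least 1. For the receptors and signalling proteins it was 0.44 over 18 genes, 16 of them above 0. Over all genes 57.4% were above 0 and 4.41% at least 1. The members' median was thus not above that of either list on these 2 arrays.

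**Figure D5:**
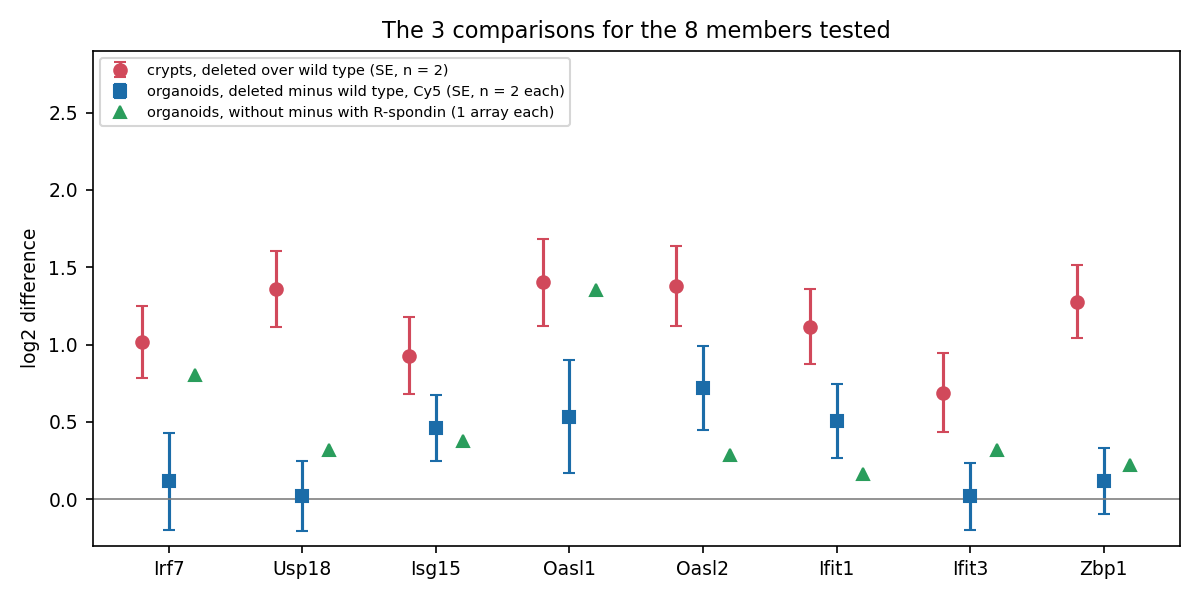
Log2 difference of each of the 8 genes in deleted over wild type crypts and in deleted minus wild type organoids (bars are standard errors), and in organoids without minus with R-spondin (1 array each, no error). Crypt changes lie above organoid differences for the 7 genes other than Ifit1. The organoid point of Ifit1 is its fitted 0.51 and not its bound, though neither wild type culture was well above background. Oasl1 is the only gene whose plotted R-spondin difference exceeds 1.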

How the data were processed

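Total RNA of 10 samples was hybridised to 2-colour Agilent arrays. Per the file headers, the scanner's Feature Extraction 10.5.1.1 wrote the deposited intensity values of each spot (the submitters' processing notes name 8.5.1.1) and log10 ratios, and the deposited series table holds the authors' log10 ratios of the same arrays. Here limma 3.58.1 (R 4.3.3) corrected mean intensities by normexp (offset 50), normalised ratios by loess within arrays, and took the brightest probe of each gene. In the organoid deletion arrays the median intensity of each spot took the place of the mean. The crypt intensities quoted were also quantile normalised between arrays on the mean level of both channels. Spots marked as outliers were removed before the background fit. A gene was tested if well above background on all arrays of at least 1 group. Ratios were turned so that deleted stands over wild type, and the 2 dye-swapped arrays of a crypt replicate were averaged. Organoid cultures were compared on Cy5 intensity after quantile normalisation. Probes were named by accession (25097), symbol (6333) or older symbol (1640) through RefSeq's gene table, and 8104 kept the file's name. Tests were two-sided with Benjamini-Hochberg adjustment over all genes tested. The number of arrays limits the precision. The crypt and organoid fits were tested on simulated data. The members, gene lists and alternatives were chosen with earlier results of these data known. The text names all 9 members, up to 4 genes of each pathway list with the lowest p in crypts, the 5 nearest genes, and Lgr4, Lgr5 and Cyp1a1. Ccl5, Ifnb1, Ifng, Gbp3 and Bst2 were named after their values were seen. A listed gene that this rule would name is not reported here.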

Additional observations from a re-analysis of the deposited data

How the results depend on the processing

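In crypts, the count of members called higher was 0 of 8, and every setting kept all 8 changes above 0. Settings that only leave out arrays could not turn a sign, since all 8 were above 0 on each array. The mean of a gene's probes and the lack of a filter left the 8 changes as they were, so they could not either. The count stayed at 0 with marked spots kept, with the mean of a gene's probes and without the filter on dim probes. With the deposited processed signals 6 were called, 6 with the series table, 4 without loess, 6 with only the arrays that had deleted RNA in Cy3, and 2 with only those in Cy5. With 1 crypt array left out, a setting chosen after seeing the data, 4 were called without replicate 1's Cy3 array and 6 without its Cy5 array, and 0 without either array of replicate 2. Over all genes 22 were called higher and 3 lower, against 317 and 181 with processed signals, 285 and 152 with the series table, 273 and 50 without loess, 253 and 229 on the Cy3 arrays and 76 and 26 on the Cy5 arrays. They were 77 and 23 with the mean of a gene's probes, 35 and 12 with marked spots kept, and 0 and 0 without the filter on dim probes. Without loess the median of all genes shifted to 0.15. The crypt median over members was 0.98 with marked spots kept, and 1.00 to 1.43 with a replicate left out. With a replicate left out only 1 biological value remained, so no count of calls is given for it. The cause of these differences was not tested.

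In organoids no member was called in any setting, and of all genes 4 were called higher and 1 lower. With the slide as a block 142 and 199 genes were called, and 40 and 52 with the processed Cy5 signal. The members' median of 0.29 moved to 0.11 with the series table (where all genes had 0.16), to 0.10 with marked spots kept and to 0.12 without the filter, which adds Ifi44. With a culture left out it was 0.17 to 0.45. With a culture left out, differences ran between -0.25 (without the first wild type culture; -0.08 without the second deleted one) and 0.48 for Irf7, between -0.13 (without the first deleted culture; -0.03 without the second wild type one) and 0.17 for Usp18, and between -0.082 (without the first deleted culture; -0.02 without the first wild type one) and 0.12 for Ifit3. For Oasl1 they ran between 0.02 and 1.05. Ifit1 was at 0.51, and at 0.16 with marked spots kept, 0.32 with the series table, 0.87 as a ratio and 1.18 with the processed Cy5 signal. Ifit3 was at -0.012 with the processed Cy5 signal. Isg15 was at -0.073 as a ratio and at 0.21 with the series table. The R-spondin median was 0.46 with processed signals and with the series table. No member passed the crypt against organoid fit in any setting. With the slide as a block, which pairs the organoid cultures that shared a slide, no member's call changed.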
